A study of Mus musculus with 3 samples.

Results

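Promoter regions shared by several genes were examined in SRF chromatin immunoprecipitation sequencing (ChIP-seq) data from whole mouse cornea. A shared promoter region was a merged binding region whose centre lay within 1000 bp of the listed starts of 2 or more genes, whatever its CpG island count. By this rule 1141 of 31850 regions were shared promoters: 1126 had 2 genes at their centre, 12 had 3 and 3 had 4. They carried the starts of 2228 genes, of which 2144 matched a RefSeq entry by gene identifier. The rule used positions only and no measured height.

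Each genotype had 1 ChIP library. The mutant library came from untreated Dstn-corn1 mice, and its counterpart was titled wildtype. Dstn-corn1 is a mutation of destrin, a protein that takes actin filaments apart. Both were whole corneas of mice on a mixed background, aged about 8 weeks, as was a library of input DNA made without antibody, whose values were not used here. The growth protocol names mutant mice for every library, against the title of the wildtype one. The input's genotype and any pooling of corneas were not given in the sources used here. At the start of Dstn itself the height was 0 in mutant and 35 in wildtype, so the titles and this value did not conflict. With 1 library a genotype, the differences between them were not checked in replicates, and no p-values are reported.

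The value given for each region is its peak height, the signal at its highest point as the authors deposited it. Its sequencing depth is unknown, as no read totals were at hand. Ratios are log2 of mutant over wildtype height after adding 1 to both, which understates differences at low regions. Over all regions the median ratio was -1.10. Multiplying the mutant heights by 2.1, which equalizes the medians of the libraries at regions with a call in each, moved that median to -0.090. Directions between the libraries therefore depend on this unknown scaling, and ratios are read here against those of all regions. Intervals on shares are exact binomial 95% intervals and intervals on medians are order-statistic 95% intervals, which reflect the number of regions and not the variation between animals.

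SRF, the serum response factor, binds the CArG box, a short element with an A and T rich core between a CC and a GG. Its partners are the myocardin-related factors, which sense free actin, and the ternary complex factors of the ETS family, which respond to growth signals. Genes on opposite strands often start close together in mammalian genomes and share a bidirectional promoter. Such promoters usually lie in CpG islands, mostly lack a TATA box, and often serve housekeeping genes of DNA repair, mitochondria and RNA processing.

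Promoter sequence was read from RefSeq windows on GRCm38.p6, the assembly of the files' mm10 build, covering 250 bases before to 50 bases after a gene start. The RefSeq start nearest to the listed start was used, if within 1000 bp. Over the whole series it was the same position for 75.65% of plus-strand and 74.79% of minus-strand genes with such a window. A window was at hand for 1744 of the 2228 genes and overlapped the binding region for 1620 of them, in 959 of the 1141 regions. Windows from 3 of the 10 highest shared regions are shown first. They are not the 3 highest, and were picked, with a single gene of each pair, after their heights were known. Capitals mark the CArG box, CCGGAA (the ETS core), CCAAT and GGGCGG (a GC box), on either strand.
Hnrnpa2b1 (minus strand, chr6:51469845-51470144): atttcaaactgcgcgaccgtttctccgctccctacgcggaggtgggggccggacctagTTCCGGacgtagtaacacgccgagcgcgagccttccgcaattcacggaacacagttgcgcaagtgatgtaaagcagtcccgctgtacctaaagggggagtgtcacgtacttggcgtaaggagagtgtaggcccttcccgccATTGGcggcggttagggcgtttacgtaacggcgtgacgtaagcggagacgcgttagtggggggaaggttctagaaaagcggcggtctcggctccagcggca
Ccdc59 (plus strand, chr10:105841229-105841528): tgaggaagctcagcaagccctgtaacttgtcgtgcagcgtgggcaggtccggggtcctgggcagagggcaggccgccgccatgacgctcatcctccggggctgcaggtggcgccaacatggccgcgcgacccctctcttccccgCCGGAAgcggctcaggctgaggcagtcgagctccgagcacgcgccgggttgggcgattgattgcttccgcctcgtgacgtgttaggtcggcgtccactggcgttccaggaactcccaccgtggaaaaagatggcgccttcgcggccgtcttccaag
Dctn5 (plus strand, chr7:122132791-122133090): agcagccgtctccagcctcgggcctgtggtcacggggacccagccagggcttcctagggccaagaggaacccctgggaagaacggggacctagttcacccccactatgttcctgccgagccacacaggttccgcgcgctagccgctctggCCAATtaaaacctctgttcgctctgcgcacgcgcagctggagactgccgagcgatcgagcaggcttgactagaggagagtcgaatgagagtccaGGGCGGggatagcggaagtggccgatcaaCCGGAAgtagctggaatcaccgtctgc
None of the 3 windows held an exact CArG box, while each held a CCGGAA on one of its strands. These 3 do not stand for their height class. Of the 25 shared regions with a window and a mean height of 100 or more, 8 (32.0%) held a CCGGAA inside the region. Of all 959, 460 (48.0%) did, counting only the part of a region that a window covers.

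A pair of windows with a CArG box are shown for contrast. They come from regions with more signal in mutant than in wildtype before scaling, and were likewise picked with their heights known.
Irf3 (plus strand, chr7:44997398-44997697): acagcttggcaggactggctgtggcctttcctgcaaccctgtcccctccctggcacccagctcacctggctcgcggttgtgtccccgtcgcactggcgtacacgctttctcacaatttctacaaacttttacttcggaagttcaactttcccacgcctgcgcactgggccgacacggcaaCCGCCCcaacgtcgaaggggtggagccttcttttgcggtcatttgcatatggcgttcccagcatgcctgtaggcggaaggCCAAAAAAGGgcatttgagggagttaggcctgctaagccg
Actg1 (minus strand, chr11:120348446-120348745): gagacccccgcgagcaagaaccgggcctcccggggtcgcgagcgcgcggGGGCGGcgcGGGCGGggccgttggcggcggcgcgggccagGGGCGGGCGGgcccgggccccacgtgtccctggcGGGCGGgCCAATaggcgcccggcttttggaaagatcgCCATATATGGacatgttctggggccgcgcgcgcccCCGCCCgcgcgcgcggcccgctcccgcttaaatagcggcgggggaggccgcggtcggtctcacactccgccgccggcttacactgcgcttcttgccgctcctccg
In the Actg1 window the box lies at -90 to -81 from the RefSeq start, counted as 0, of this cytoplasmic actin gene, a textbook SRF target, with a CCAAT at -120 to -116. In the Irf3 window it lies at 10 to 19, just past the start.

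An exact CArG box lay in 18 of 1620 shared promoter windows (1.11%), against 42 of 3637 windows at single-gene CpG island promoters (1.15%) and 535 of all 32851 windows of the reference table (1.63%). Allowing up to 1 mismatch, which includes the exact boxes, these shares were 13.6%, 14.7% and 21.1%. The ETS core CCGGAA was in 42.7% of shared promoter windows, 34.2% at single-gene CpG island promoters and 14.9% of all windows. GGGCGG was in 72.0%, 74.9% and 35.7%, and CCAAT, whose letters can overlap a mismatched CArG box, in 38.8%, 38.9% and 37.4%. TATAAA was in 4.38%, 5.17% and 13.6%, and the NRF1 motif, another element of CpG island promoters, in 2.35%, 2.53% and 0.971%. Both strands were searched for every motif, and the windows of a gene pair often overlap, so the counts are not independent. A match describes the letters of the window and is not a bound site.

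Inside the bounds of a binding region, 11 of the 959 regions with a window held an exact box. Only the part of a region that a window covered was searched, so boxes elsewhere in a region were not seen. Each is printed with 10 bases on either side and the box in capitals.
Bcl2l12/Irf3 (minus strand, chr7:44997648-44997677): cctcaaatgcCCTTTTTTGGccttccgcct
Atp6v1d/Eif2s1 (plus strand, chr12:78861956-78861985): ttcacaccgcCCATATTAGGaggaccaaga
Gpr108/Trip10 (plus strand, chr17:57249305-57249334): ggcgcatggcCCTTTAATGGggggcggggc
Tada3/Arpc4 (minus strand, chr6:113377853-113377882): aggttgggcaCCAAATTAGGacaggccgaa
Ing2/AA386476 (plus strand, chr8:47675196-47675225): agcactcactCCTAATAAGGctggggcccc
Actg1/0610009L18Rik (plus strand, chr11:120348566-120348595): cagaacatgtCCATATATGGcgatctttcc
Recql5/Sap30bp (minus strand, chr11:115933612-115933641): gactcataagCCAATTTAGGggcgagaaaa
Anxa5/1810062G17Rik (plus strand, chr3:36475843-36475872): tggccacctcCCTAATTAGGtcccagcccg
Zfp644/LOC100504779 (minus strand, chr5:106696888-106696917): ttggtcgccaCCATATTTGGagcgtgccta
Sbds/Tyw1 (plus strand, chr5:130255626-130255655): gttacgcctaCCTATTATGGgtgagtaatg
Hist1h3c/Hist1h2bb (plus strand, chr13:23746502-23746531): ctaaaagttcCCAAATAAGGaaacactgta
Before scaling 7 of these were lower in mutant and 4 higher, and 5 had a ratio above the median of all shared promoters. Their median ratio was -0.70, against -0.65 in the 948 regions with no box in the part searched. After scaling by 2.1 the same 11 ratios lay between -0.49 and 1.52.

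Bcl2l12/Irf3, an apoptosis family gene beside the interferon regulatory factor 3 gene, had the tallest mutant peak of the 11, with 87 in mutant and 83 in wildtype. Actg1/0610009L18Rik had 31 in mutant and 22 in wildtype. Hist1h3c/Hist1h2bb, a histone pair, had 14 in mutant and 12 in wildtype. Recql5/Sap30bp, with a DNA helicase gene, had 25 in mutant and 26 in wildtype. Zfp644/LOC100504779, with a zinc finger gene, had 20 in mutant and 19 in wildtype. In these 5 regions mutant was higher or within 1 unit of wildtype before scaling.

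The other 6 were lower in mutant before scaling. Atp6v1d/Eif2s1, a proton pump subunit beside the translation initiation factor eIF2 alpha gene, had 40 in mutant and 89 in wildtype. Gpr108/Trip10, of which Trip10 codes for a Cdc42-interacting protein, had 22 in mutant and 51 in wildtype. Tada3/Arpc4, of which Arpc4 is a subunit of the actin-nucleating Arp2/3 complex, had 21 in mutant and 41 in wildtype. Ing2/AA386476 had 23 in mutant and 38 in wildtype. Anxa5/1810062G17Rik, with an annexin gene, had 14 in mutant and 30 in wildtype. Sbds/Tyw1, with a gene of ribosome maturation, had 8 in mutant and 24 in wildtype. After scaling, Tada3/Arpc4, Ing2/AA386476 and Recql5/Sap30bp had ratios of 0.10, 0.34 and 0.99, so their direction turned.

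SRF signal at shared promoters was lower in mutant before scaling, but by less than over all regions. Median heights were 15 in mutant (interquartile range 11 to 21) and 22 in wildtype (16 to 37), against 13 in mutant and 28 in wildtype over all regions. The median ratio was -0.66 (95% interval -0.71 to -0.61) at shared promoters and -1.10 over all regions. After scaling these were 0.36 and -0.090, so the sign at shared promoters turned while the difference from all regions was 0.44 unscaled and 0.45 scaled. Mutant height was the lower one at 991 shared promoters (86.9%), the higher one at 119 and equal at 31; over all regions mutant was lower at 95.4%.

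By a rule of size, 347 shared promoters (30.4%, 27.8 to 33.2) were at least 2-fold lower in mutant, where the background over all regions was 59.0%. At least 2-fold higher in mutant were 5 (0.438%), against 0.414% of all regions. With scaling, 24 (2.10%) were lower by this rule and 153 (13.4%) higher in mutant, against 9.30% and 4.58% of all regions. Mutant and wildtype heights had a Spearman correlation of 0.705 over the 1141 regions, as a description of 2 libraries whose intervals were called by the same authors.

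**Figure D1:**
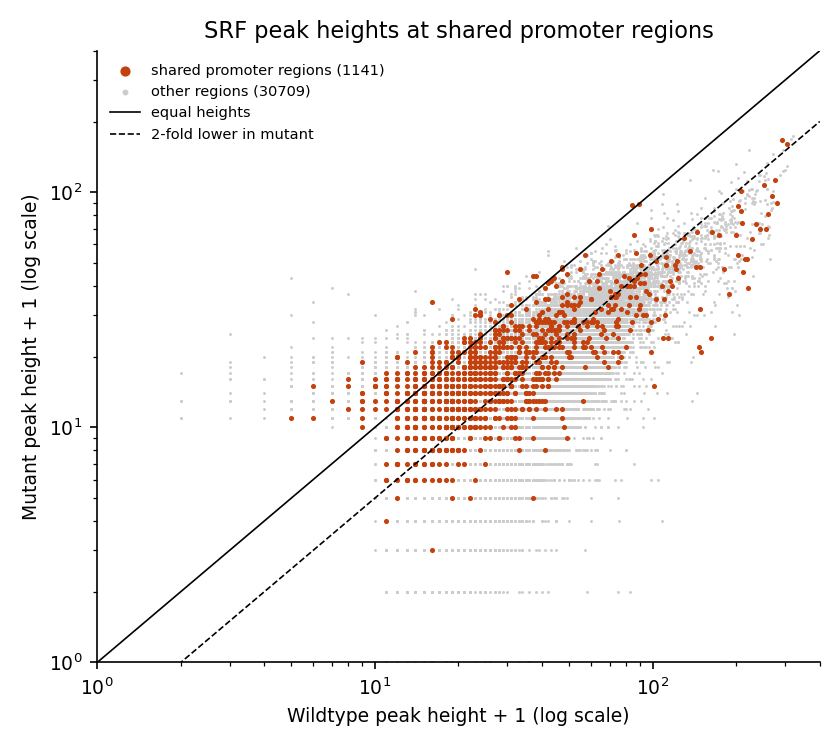
Mutant peak height plus 1 (vertical, log scale) against wildtype peak height plus 1 (horizontal, log scale) for 1141 shared promoter regions (orange) and 30709 other regions (grey), with lines of equal height and of a 2-fold lower mutant height. Most shared promoters lie between the lines, and only 5 reach 2-fold higher in mutant before scaling.

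An interval was called in both libraries at 696 shared promoters (61.0%, 58.1 to 63.8), against 48.9% of all regions. Wildtype alone had a call at 391 (34.3%), against 49.0% of all regions, and mutant alone at 54 (4.73%), against 2.10%. Single-gene CpG island promoters lay nearer, with 57.2% called in both, 38.4% in wildtype alone and 4.36% in mutant alone. No shared promoter was listed at 0 in either library; the smallest heights were 2 in mutant and 4 in wildtype. At regions called in both the median ratio was -0.62 for shared promoters, -0.78 for single-gene CpG island promoters and -0.96 over all regions. At the 391 with a wildtype call alone, median heights were 10 in mutant and 17 in wildtype, and at the 54 with a mutant call alone they were 14 in mutant and 10 in wildtype.

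CpG islands covered most shared promoters, 1074 of 1141 (94.1%), against 23.0% of all regions. Most single-gene promoters had an island too, 5048 with and 1045 without, while most of all regions lay away from gene starts. Single-gene promoters with a CpG island (5048 regions) lay nearer to shared ones than all regions did, with medians of 14 in mutant and 22 in wildtype and a median ratio of -0.78 (-0.81 to -0.76). The ratio at shared promoters was 0.13 higher than at these, and 0.12 higher after scaling. Single-gene promoters without an island (1045 regions) had a median ratio of -1.05, and regions with no start within 1000 bp (24616 regions) one of -1.18. The share at least 2-fold lower in mutant before scaling was 30.4% at shared promoters, 38.5% and 55.2% at single-gene promoters with and without an island, and 64.8% away from starts. Shared promoters without an island, 67 regions, had a median ratio of -0.78 (-0.88 to -0.59). Shared promoter regions were also longer, with a median length of 821 bp against 758 bp at single-gene CpG island promoters and 627 bp over all regions. The part of length and of CpG island content in the ratio was not tested.

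**Figure D2:**
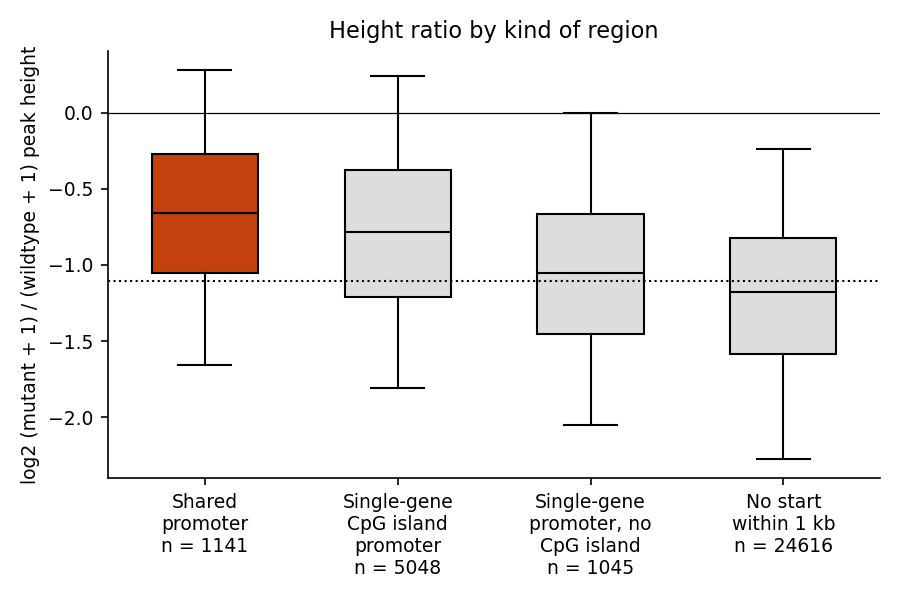
Log2 ratio of mutant over wildtype peak height (vertical) for 4 kinds of region. Boxes span the quartiles with the median as a line, whiskers reach the 5th and 95th percentiles, and the dotted line is the median of all regions, -1.10. The shared promoter box sits highest, with a median of -0.66 that becomes 0.36 after scaling.

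The ratio at shared promoters was lower the taller the region. Shared promoters with a mean height of the libraries under 20, 607 regions, had a median ratio of -0.49 (-0.55 to -0.45). Those of 20 to under 50, 422 regions, had -0.75 (-0.82 to -0.68), those of 50 to under 100, 86 regions, -1.20 (-1.37 to -1.06), and the 26 of 100 or more -1.62 (-1.88 to -1.29). Over all regions the same classes had -1.06, -1.12, -1.18 and -1.35. Single-gene CpG island promoters ran in parallel, with -0.58, -0.93, -1.26 and -1.45. Shared promoters thus lay above all regions in the 2 lower classes, close to them at 50 to under 100, and lower in the top class, where the interval of all regions (-1.39 to -1.31) fell inside that of shared promoters. At the top class, 24 of 26 shared promoters (92.3%) were at least 2-fold lower in mutant before scaling, and 88.8% of all regions in that class were. Mean height and the ratio share both libraries' values. The Spearman correlation of height and ratio was -0.358 at shared promoters, -0.389 at single-gene CpG island promoters and -0.038 over all regions.

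**Figure D3:**
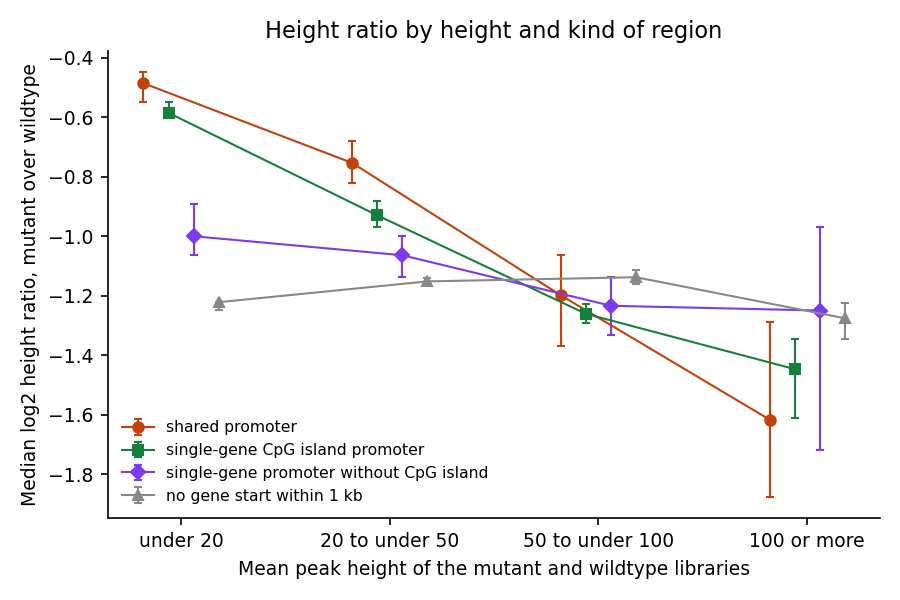
Median log2 ratio of mutant over wildtype height (vertical) in 4 classes of mean peak height (horizontal) for each kind of region, with order-statistic 95% intervals as bars. Shared promoters run downwards, -0.49 in the lowest class and -1.62 in the highest, while regions away from starts stay between -1.14 and -1.28. Scaling by 2.1 moves all points up together.

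The tallest shared promoters joined genes of varied roles, and 9 of the 10 highest by mean height are described. Hnrnpa2b1/Cbx3, genes of an RNA-binding protein and of heterochromatin protein HP1 gamma, stood highest by mean height with 160 in mutant and 303 in wildtype; the region spans chr6:51468652-51471067 (mm10, as listed) and the starts are 722 bp apart. Gpr137/Bad, with the apoptosis gene Bad, had 166 in mutant and 292 in wildtype. Mettl25/Ccdc59, with a methyltransferase-like gene, had 112 in mutant and 275 in wildtype. Palb2/Dctn5, a partner of BRCA2 in recombination repair and a dynactin subunit, had 89 in mutant and 280 in wildtype. Ptcd1/Cpsf4, for a mitochondrial RNA-binding protein and an mRNA cleavage factor, had 95 in mutant and 268 in wildtype. Plcd3/Acbd4, with a phospholipase C gene, had 106 in mutant and 251 in wildtype. Exoc2/Gm5447, with an exocyst subunit, had 69 in mutant and 256 in wildtype. Aurka/Cstf1, a mitotic kinase gene and another mRNA cleavage factor gene, had 69 in mutant and 243 in wildtype. Ccdc47/Ddx42, with an RNA helicase gene, had 100 in mutant and 208 in wildtype. In these 9 mutant was lower before scaling, with ratios of -1.88 to -0.81, on both sides of the median of all regions; after scaling Hnrnpa2b1/Cbx3, Gpr137/Bad and Ccdc47/Ddx42 lay above 0.

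The lowest ratios, among members whose higher library reached its median, included several tall wildtype peaks. Mageh1/9530051G07Rik on chromosome X had 4 in mutant and 36 in wildtype, a ratio of -2.89. Tug1/Morc2a, a long noncoding RNA gene beside a chromatin ATPase gene, had 20 in mutant and 149 in wildtype. Pex13/Pus10, a peroxisome import gene beside a pseudouridine synthase gene, had 23 in mutant and 161 in wildtype. Ndufa5/Asb15, of which Ndufa5 is a complex I subunit, had 38 in mutant and 219 in wildtype. C8g/Fbxw5, a complement gene beside an F-box gene, had 14 in mutant and 100 in wildtype. Wdr12/Carf, with a ribosome biogenesis gene, had 21 in mutant and 146 in wildtype. After scaling the ratio was still -1.98 at Mageh1/9530051G07Rik and -1.80 at Tug1/Morc2a. The choice used the ratio itself, so these values only describe the extremes.

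The highest ratios, among members whose higher library reached its median, belonged to peaks of 15 to 45 in mutant. The median to be reached was 15 in mutant and 22 in wildtype. This choice therefore let in lower peaks where mutant was the higher library. Zbtb5/1700055D18Rik, with a zinc finger factor gene, had 33 in mutant and 15 in wildtype, a ratio of 1.09. The microRNA pair Mir212/Mir132 had 18 in mutant and 8 in wildtype. Smcr7/Mir5100, another pair with a microRNA, had 15 in mutant and 7 in wildtype. Gnl3/Pbrm1, genes of nucleostemin and of a SWI/SNF remodelling subunit, had 19 in mutant and 11 in wildtype. Enkur/Thnsl1 had the tallest mutant peak of the 10, with 45 in mutant and 29 in wildtype. The other 5 were Sap18/Mir3077, 2500004C02Rik/Asxl1, Nubp2/Spsb3, Gm20604/AK010878/Ubr7 and Calr/1700122E12Rik, with ratios of 0.58 to 0.74. Chosen by the ratio, these too are extremes and no more than a description.

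**Figure D4:**
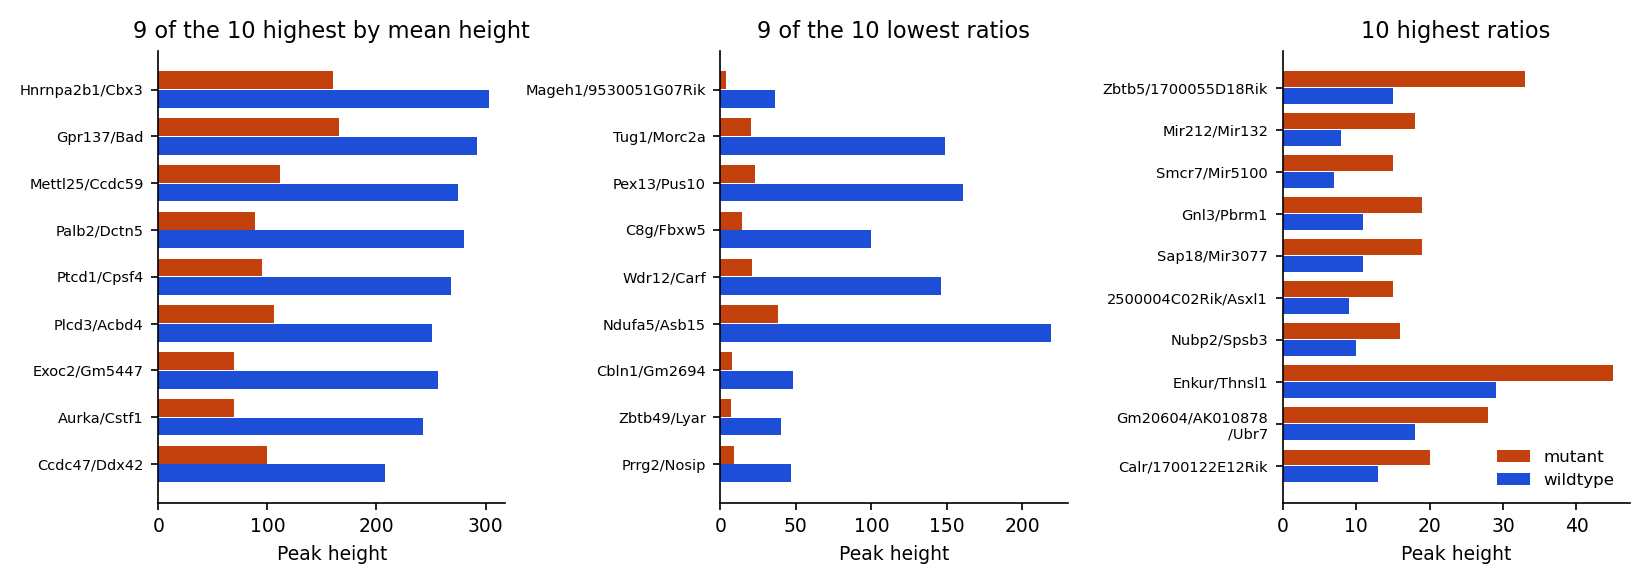
Peak heights (horizontal, from 0; each panel has its own scale) in mutant (orange, upper bar) and wildtype (blue, lower bar) for 9 of the 10 shared promoters highest by mean height, 9 of the 10 with the lowest ratios and the 10 with the highest, ratios being ranked among members whose higher library reached its median. Regions of low ratio reach wildtype heights of 36 to 219, while those of high ratio have mutant heights of 15 to 45, before scaling. The median to be reached was 22 in wildtype and 15 in mutant, so these ranges partly follow from the choice.

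Nearly all gene pairs ran in opposite directions. Of the 1126 regions with 2 genes, 1077 (95.7%, 94.3 to 96.8) had them on opposite strands: in 882 (78.3%) the starts diverged without overlap, and in 195 (17.3%) the genes overlapped at their starts. The remaining 49 (4.35%) were on the same strand. Diverging starts lay a median of 191 bp apart (interquartile range 103 to 335, largest 1810). The rule, with both starts within 1000 bp of the region centre, limits this spacing. How often annotated starts this close lie on opposite strands was not counted, so the 95.7% has no background beside it. The median ratio was -0.63 (-0.68 to -0.58) for diverging pairs, -0.76 (-0.83 to -0.66) for overlapping pairs and -0.85 (-1.07 to -0.65) for pairs on the same strand, with 28.1%, 37.9% and 46.9% at least 2-fold lower in mutant before scaling. Median heights were 15 in mutant and 22 in wildtype for diverging pairs, 14 in mutant and 23 in wildtype for overlapping pairs, and 13 in mutant and 20 in wildtype on the same strand.

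The spacing of the starts went with little difference in signal up to 1 kb. Pairs with starts under 200 bp apart (521 regions) had a median ratio of -0.67 (-0.74 to -0.60), those at 200 to under 500 bp (387) -0.61 (-0.74 to -0.55), and those at 500 to under 1000 bp (188) -0.68 (-0.79 to -0.58). The 30 pairs 1000 bp or more apart had -1.01 (-1.18 to -0.64), with median heights of 15 in mutant and 33 in wildtype. Regions with 3 or more genes, 15 in all, had medians of 15 in mutant and 18 in wildtype and a ratio of -0.32 (-0.50 to 0.085), and several of them hold small RNA genes.

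The point of strongest signal was set against the starts in both libraries. The rule already put region centres within 1000 bp of the starts, so nearness to them partly follows from it. Where a diverging pair had a called interval, the summit stood between the starts in 319 of 586 cases in mutant (54.4%, 50.3 to 58.5) and 441 of 843 cases in wildtype (52.3%, 48.9 to 55.7). With starts at least 200 bp apart these shares were 69.8% in mutant and 67.7% in wildtype. The median distance to the nearer start was 65.5 bp in mutant and 65.0 bp in wildtype, against 123 bp in mutant and 111 bp in wildtype to the start at single-gene CpG island promoters; a region with 2 starts has more chances of a near one. In the 696 regions called in both, mutant and wildtype summits lay a median of 32 bp apart. They fell within 100 bp of each other in 77.7%, against 82.6% at single-gene CpG island promoters and 94.1% over all regions called in both.

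**Figure D5:**
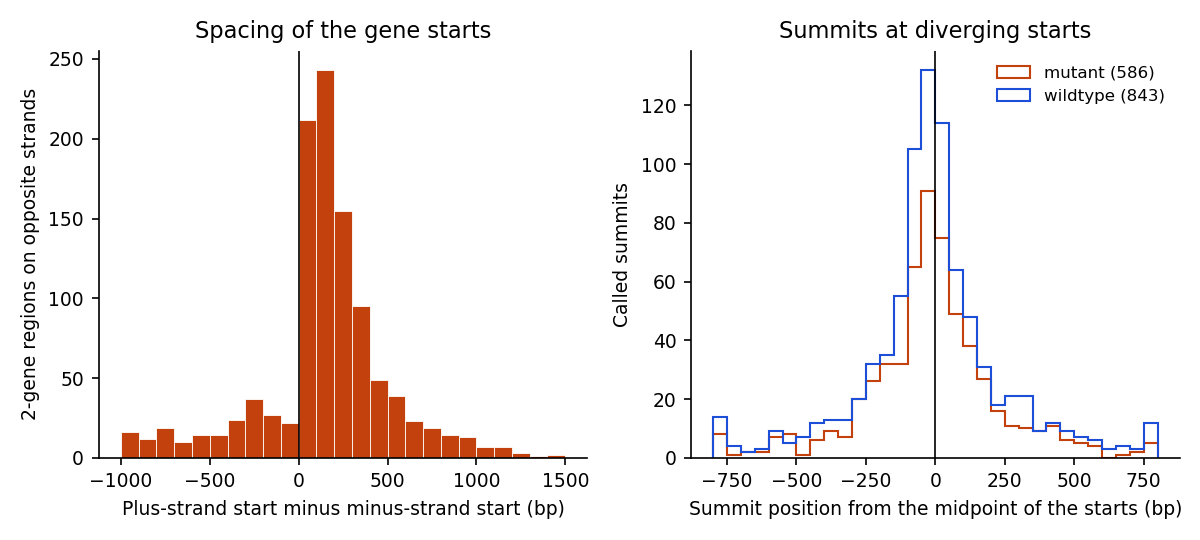
Left, distance of the plus-strand start from the minus-strand start in bp (horizontal; above 0 the genes diverge, below 0 they overlap) for the 1077 pairs on opposite strands, counted in bins. Right, summit position in bp from the midpoint of the starts for diverging pairs, 586 mutant (orange) and 843 wildtype (blue) summits; values past the ends are in the end bins. Starts pile up just above 0 and summits around the midpoint in both libraries. The rule, which put region centres within 1000 bp of both starts, limits both spreads.

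Of the 2228 genes, 1806 (81.1%) were protein-coding, 263 (11.8%) long noncoding RNA genes, 33 microRNA genes and 21 small nucleolar RNA genes. Regions whose genes all code for protein, 732, had a median ratio of -0.63 (-0.68 to -0.58). The 256 with a long noncoding RNA gene had -0.76 (-0.86 to -0.64), and 37.5% of these were at least 2-fold lower in mutant before scaling, against 26.9% of the coding ones. The 44 with a microRNA or small nucleolar RNA gene had -0.52 (-0.81 to -0.32). Of these, 25 of the 32 with 2 genes had them on the same strand. In any orientation, the signal of a region cannot be divided between its genes.

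Few known SRF targets were at shared promoters. Of 27 actin cytoskeleton and myocardin-related factor targets with a region at their start, 3 (11.1%) were at a shared one, and of 26 immediate early and ternary complex targets there were 0; of all 8061 genes with such a region, 2228 (27.6%) were. Actg1/0610009L18Rik, described above, was the tallest of the 3. Cyr61/Gm17501, of which Cyr61 codes for a matrix-associated signalling protein, had 7 in mutant and 19 in wildtype. Tln1/Creb3, with the integrin-binding protein talin, had 11 in mutant and 15 in wildtype. Of SRF and its cofactors, 1 of 3 stood at a shared region: Mkl1/4930483J18Rik, with a gene of a myocardin-related factor, had 16 in mutant and 14 in wildtype. Their ratios were 0.48 at Actg1/0610009L18Rik, -1.32 at Cyr61/Gm17501, -0.42 at Tln1/Creb3 and 0.18 at Mkl1/4930483J18Rik. After scaling those at Tln1/Creb3 and Cyr61/Gm17501 were 0.59 and -0.35.

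DNA repair genes with a region at their start stood at shared promoters in 24 of 57 cases (42.1%), against 27.6% of all genes. Their 24 regions had a median ratio of -0.72 (-0.92 to -0.49), close to the -0.66 of all shared promoters, with 6 of them (25%) 2-fold or more lower in mutant before scaling, against 30.4% of all shared promoters and 59.0% of all regions. Pinlyp/Xrcc1, of which Xrcc1 is a scaffold of single-strand break repair, had 53 in mutant and 74 in wildtype. Dclre1b/Ap4b1, with a nuclease gene, had 29 in mutant and 91 in wildtype. Rad17/Taf9, a checkpoint gene beside a general transcription factor gene, had 18 in mutant and 74 in wildtype. Among these 3, Pinlyp/Xrcc1 had the highest ratio, -0.47, and Rad17/Taf9 the lowest, -1.98.

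Cell cycle genes were at shared promoters in 6 of 26 cases (23.1%, against 27.6% of all genes), with a median ratio of -0.71. Apart from Aurka/Cstf1, the regions named were low. Mcm4/Prkdc, a replicative helicase subunit beside the DNA-dependent protein kinase gene, had 16 in mutant and 25 in wildtype. Mcm7/Ap4m1, with another subunit of that helicase, had 11 in mutant and 23 in wildtype. Prpf38a/Orc1, with an origin recognition subunit, had 11 in mutant and 20 in wildtype. E2f8/Gm2788, with an E2F family factor, had 22 in mutant and 20 in wildtype.

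Mitochondrial protein genes supplied 54 of 151 (35.8%, against 27.6% of all genes), in 51 regions with a median ratio of -0.64 (-0.83 to -0.49), of which 15 (29.4%) were at least 2-fold lower in mutant before scaling, close to the 30.4% of all shared promoters and against 59.0% of all regions. Atp5g2/Mir688, an ATP synthase subunit with a microRNA on the same strand, had 46 in mutant and 180 in wildtype. Ighmbp2/Mrpl21, with a mitochondrial ribosomal gene, had 34 in mutant and 102 in wildtype. Mrps12/Sars2, both genes of mitochondrial translation, had 35 in mutant and 82 in wildtype. Mitd1/Mrpl30 had 28 in mutant and 74 in wildtype. These, with Ndufa5/Asb15, are the tallest of the list, and all 5 had ratios of -1.20 or less before scaling.

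Genes of cytoplasmic ribosomal proteins stood at shared promoters in 19 of 64 cases (29.7%), near the 27.6% of all genes. Their 20 regions had a median ratio of -0.43 (-0.84 to -0.26). Of these, 4 (20%) were at least 2-fold lower in mutant before scaling, against 30.4% of all shared promoters and 59.0% of all regions. Rpl9/Lias, of which Lias makes lipoic acid, was the tallest, with 72 in mutant and 235 in wildtype. Rps18/Vps52 had 26 in mutant and 48 in wildtype. Sphk2/Rpl18, with a sphingosine kinase gene, had 22 in mutant and 39 in wildtype. Rpl3/Snord43, with a small nucleolar RNA gene on the same strand, had 18 in mutant and 33 in wildtype. Rps29/Rn7s1 had 35 in mutant and 51 in wildtype, but Rn7s1 is a copy of the repeated 7SL RNA and reads there may be placed wrongly.

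Splicing factors and hnRNPs gave 18 of 51 (35.3%, against 27.6% of all genes), in 19 regions with a median ratio of -0.42 (-0.79 to -0.033). Of the 19, 1 (5.26%) was at least 2-fold lower in mutant before scaling, against 30.4% of all shared promoters and 59.0% of all regions. Hnrnpa2b1/Cbx3 was the tallest. Qpctl/Snrpd2, with a core spliceosome protein, had 42 in mutant and 43 in wildtype. Gucd1/Snrpd3, with another core protein, had 31 in mutant and 51 in wildtype. Ccdc157/Sf3a1, with a subunit of splicing factor 3a, had 20 in mutant and 27 in wildtype. 2010015M23Rik/Srsf1, with an SR protein, had 13 in mutant and 29 in wildtype and was the 1 past 2-fold.

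Histone genes were at shared promoters in 7 of 22 cases (31.8%, against 27.6% of all genes), in 4 regions with a median ratio of -0.54. Hist3h2bb-ps/Hist3h2a had 11 in mutant and 23 in wildtype. LOC101055801/H2afz, with the variant histone H2A.Z, had 12 in mutant and 14 in wildtype. Hist2h2ac/Hist2h2be had 5 in mutant and 10 in wildtype. Histone cluster genes are near copies of each other, so reads may be divided among them.

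MicroRNA and small nucleolar RNA genes with a region at their start were at shared ones in 54 of 79 cases (68.4%), against 27.6% of all genes. Of the 32 such regions with 2 genes, 25 had them on the same strand, against 49 of 1126 shared promoters with 2 genes. The listed starts of these small RNAs were not checked to be promoters of their own, so the share need not mean a shared promoter. Mpdu1/Mir1934 had 88 in mutant and 88 in wildtype. Cdk9/Mir2861/Mir3960, with the kinase of transcription elongation, had 69 in mutant and 98 in wildtype. Snhg7/Snora17/5730588L14Rik, with a small nucleolar RNA host gene, had 42 in mutant and 122 in wildtype. The regions with 4 genes all held several small nucleolar RNAs. Snora16a/Snora44/Snora61/Snord99 had 18 in mutant and 34 in wildtype. Snhg9/Snora78/Rps2/Snora64 had 15 in mutant and 18 in wildtype. Snord34/Snord33/Mir5121/Snord32a had 15 in mutant and 12 in wildtype.

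In 34 cases the same gene pair had 2 shared regions, 68 regions in all. Before scaling both regions were lower in mutant at 22 of these pairs, both were higher at 1, and the directions were opposite at 11; after scaling these counts were 2, 24 and 8. S100pbp/Yars, chosen after its values were seen, had 10 in mutant and 5 in wildtype at one region, and 53 in mutant and 202 in wildtype at the other, and is 1 of the 11.

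The 5 regions chosen just inside the 1000 bp limit were low. Ino80e/Hirip3, listed at -998 bp from the Ino80e start, had 5 in mutant and 12 in wildtype. Enthd2/1810043H04Rik had 9 in mutant and 13 in wildtype, while another shared region of this pair had 21 in mutant and 26 in wildtype. Abhd14a/Abhd14b had 12 in mutant and 21 in wildtype. The other 2, Gm11696/Gna13 and Cdc26/Prpf4, had 6 and 9 in mutant and 15 and 23 in wildtype. The 5 chosen just outside were taller in most cases. Tmtc2/Gm15663, listed at -1002 bp from the Tmtc2 start, had 22 in mutant and 75 in wildtype. 5330417C22Rik/1700013F07Rik had 24 in mutant and 70 in wildtype. Efcab11/Tdp1 had 11 in mutant and 17 in wildtype. The remaining 2, Eaf2/LOC101055680 and 0610040F04Rik/Bhlhe40, had 39 and 40 in mutant and 28 and 57 in wildtype.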

How the data were processed

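SRF ChIP-seq libraries of whole cornea, 1 mutant and 1 wildtype by their titles, were compared; input values were not used. BWA and the mm10 build are named in the submitters' processing notes. How intervals were called, whether duplicates were removed and how libraries were scaled were not given in the sources used here. Deposited signal values are, per the file headers, peak and average values of merged regions, with gene distances that the authors computed from the region midpoint. No read depth was available here, so intervals cover counting error over regions only.

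Members and gene lists were chosen with earlier results of these data known. Named regions were the 10 highest, the 10 extreme ratios each way among members whose higher library reached its median over members, those with most genes, the highest 5 of each list, and 5 on each side of 1000 bp. Regions with a CArG box and cases of 2 regions a pair fall outside this rule, and some regions it names are not reported here. Ratios used a pseudocount of 1 and a 2-fold rule. Motifs were searched in RefSeq windows. Code was tested on simulated data with planted ratios and motifs. Alternatives were the average value, a pseudocount of 5, scaling, distances of 500 and 2000 bp, genes with standard symbols, a height threshold and joint calls. Python 3.11.15, numpy 2.4.6, pandas 2.3.3, scipy 1.17.1 and matplotlib 3.10.9 were used. Coordinates of regions are as listed.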

Additional observations from a re-analysis of the deposited data

How the results depend on the processing

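No paired analysis was possible because there was only 1 library of each genotype. Scaling mutant heights by 2.1 turned the median ratio at shared promoters to 0.36, with 2.10% at least 2-fold lower and 13.4% at least 2-fold higher in mutant. Of 71 named regions, 3 that were at least 2-fold lower before scaling turned in sign. They were Ccdc47/Ddx42 (0.014), Hist3h2bb-ps/Hist3h2a (0.0060) and Mcm7/Ap4m1 (0.0060). Another 55 crossed the 2-fold limit or, from a smaller ratio, changed sign, and 13 did neither. Average values gave a median of -0.50 and 12.4% at least 2-fold lower, against -0.83 and 35.5% over all regions. A pseudocount of 5 gave -0.54, 19.4% lower and 0% higher, against -0.93 and 45.3% lower over all regions. Within 500 bp of starts 63.9% were called in both libraries, 95.4% had a CpG island and 97.1% ran head to head. Within 2000 bp the median was -0.72, 33.3% were at least 2-fold lower and 87.7% had an island. Genes with a standard symbol left 667 regions, 27.6% at least 2-fold lower, 0% higher, and 98.1% head to head. Regions whose higher library reached 28, the median over all regions, had a median of -1.0, 51.9% at least 2-fold lower and 90.1% called in both, where all such regions had -1.21 and 68.6%. Counting each gene pair once, an alternative chosen after seeing the data, kept all 4 values inside their intervals. The shared median lay above that of all regions under scaling, the average value, the pseudocount, the joint calls and the height threshold. The cause of the moves was not tested. Depth is unknown and limits low peaks most.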

Other observations

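The ETS core CCGGAA, searched on both strands, was in 46.1% of shared regions with a promoter window and a mean height under 20, 51.5% from 20 to under 50, 48.1% from 50 to under 100 and 32.0% of 100 or more. Only the part of a region that a window covered was searched. Regions with a CCGGAA there had median heights of 16 in mutant and 24 in wildtype and a median ratio of -0.58. Regions with none in the part searched had 14 in mutant and 23 in wildtype and a ratio of -0.71, before scaling.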
